A study of Mus musculus with 17 samples.

Results

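Macrophage and monocyte marker genes were measured in sorted skeletal progenitor cells of fracture callus and uninjured bone. Csf1r, Lyz2, Cd68, Adgre1, Mrc1, C1qa, C1qb, C1qc, Cd14 and Ctss were taken by name, as the probe sets that the platform annotation gives to a single one of these symbols. Such probe sets numbered 14 of 34945 with a single symbol. C1qb and Csf1r had 3 each and the other members had 1 each, and the probe set of highest mean signal stood for its gene. All 10 members were among the 14504 genes that passed the filter on low signal, out of 18193 genes measured.

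RNA was hybridized on 17 Affymetrix arrays from mouse skeletal stem cells (mSSC, 9 arrays) and their progeny, the bone, cartilage and stromal progenitors (mBCSP, 8 arrays), of female C57BL/6 mice. By the methods, mice were ovariectomized (OVX) or sham-operated at 8 weeks of age and fractured 6 weeks later, and the shafts of broken and intact femurs were collected on day 7 after fracture. Estradiol (E2) was given by pellet to a group of ovariectomized mice. Callus arrays came from sham (4), OVX (2) and OVX + E2 mice (2), and uninjured arrays from sham (3) and OVX mice (2). A further 2 callus arrays are titled OVX but carry a sham treatment label, and 2 more carry no surgery label. These 4 arrays were kept as groups of their own ("conflicting" and "unstated" below) and entered the comparison of callus with uninjured bone, for which their labels suffice. In the other comparisons they entered the shared estimate of the spread only, beside the population and form terms.

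Array titles come in 3 forms, which were treated as sets since nothing in the labels says what they are. The 6 treatment-coded arrays are all callus and hold sham, OVX and OVX + E2 cells of both populations. The 7 arrays with 3-letter codes and the 4 injury-coded arrays hold callus and uninjured bone. The labels do not say whether arrays came from separate mice or pools, so p-values speak for these arrays only. For callus against uninjured bone they measure the spread between arrays. Surgery is not a term in that fit, so differences between surgery groups are part of this spread. The mSSC and mBCSP arrays of the same group and set count there as separate arrays, so a shift that they share counts in each. In the fit of the other comparisons, each group within a set has at most 1 mSSC and 1 mBCSP array. There the spread comes only from how the mSSC minus mBCSP difference varies between such pairs. No spread between repeated arrays of the same condition enters it. A shift shared by both arrays of a pair would count in full as an effect of group or title form. All levels below are log2 signals, differences are log2 fold changes, and the lowest value that a gene could take was a floor of 5.95. Levels of different genes are not compared, since probe sets differ in brightness. In bulk RNA, fewer cells of a type cannot be told apart from less RNA per cell.

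Macrophages and monocytes are phagocytes of the blood lineage that clear debris and dying cells, present antigen and release cytokines. In bone, macrophages line the bone surface and enter the callus early after fracture, and osteoclasts arise from the same precursors under CSF1. Csf1r encodes the receptor of CSF1, on which survival of these cells depends. Adgre1 (F4/80), Cd14 (co-receptor for bacterial lipopolysaccharide) and Mrc1 (mannose receptor) encode surface proteins. Lyz2 (lysozyme), Cd68 (a lysosomal membrane glycoprotein) and Ctss (the protease cathepsin S) serve in phagosomes and lysosomes, and C1qa, C1qb and C1qc encode the chains of C1q, which opens the classical complement pathway. Neutrophils also carry Lyz2 and Cd14. By the methods, cells were stained for CD45, Ter119 and Tie2, markers of leukocytes, red cells and endothelium that lie outside the definition of both populations, so the members are genes of cells that the sort was built to leave out. The arrays do not bear this out throughout: Ptprc, which encodes CD45, read 13.79 to 14.74 on the 5 uninjured arrays and 6.58 to 13.53 on the 12 callus arrays. Itgav, the integrin used to gate both populations, read 10.51 to 12.78 on all 17 arrays.

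Promoters of 6 members were in the RefSeq table (GRCm38.p6), namely C1qb, C1qc, Lyz2, Ctss, Cd68 and Mrc1. The 4 shown, of 200 bases before the annotated start in the direction of transcription, belong to C1qb, C1qc, Lyz2 and Ctss. Over the 17 arrays C1qb followed C1qc (r = 0.86) more than Lyz2 (-0.14) or Ctss (0.22). Within title forms this order did not hold. The values for C1qc, Lyz2 and Ctss were 0.72, 0.91 and 0.86 over the treatment-coded arrays, and 0.03, 0.08 and 0.19 over the 3-letter arrays. Capitals mark GAGGAA, the core bound by PU.1 (the factor that directs macrophage development), or its reverse complement TTCCTC. C1qb lies at chr4:136886201-136886400 on the minus strand, C1qc at chr4:136892915-136893114 on the minus strand, Ctss at chr3:95526586-95526785 on the plus strand and Lyz2 at chr10:117282273-117282472 on the minus strand.
C1qb: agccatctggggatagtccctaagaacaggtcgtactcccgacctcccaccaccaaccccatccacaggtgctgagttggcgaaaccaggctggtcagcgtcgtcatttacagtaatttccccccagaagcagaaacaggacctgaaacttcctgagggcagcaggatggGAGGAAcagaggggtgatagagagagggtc
C1qc: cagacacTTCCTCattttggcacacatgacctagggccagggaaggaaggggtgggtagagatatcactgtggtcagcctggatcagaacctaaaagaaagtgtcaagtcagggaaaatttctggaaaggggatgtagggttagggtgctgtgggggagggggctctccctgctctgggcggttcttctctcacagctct
Ctss: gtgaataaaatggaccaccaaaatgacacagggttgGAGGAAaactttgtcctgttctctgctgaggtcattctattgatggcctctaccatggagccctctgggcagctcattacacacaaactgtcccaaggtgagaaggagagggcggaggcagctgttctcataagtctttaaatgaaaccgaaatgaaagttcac
Lyz2: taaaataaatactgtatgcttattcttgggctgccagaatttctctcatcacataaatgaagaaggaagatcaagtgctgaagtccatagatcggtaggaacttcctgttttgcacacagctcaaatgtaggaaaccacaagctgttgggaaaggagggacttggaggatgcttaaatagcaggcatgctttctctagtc
GAGGAA on either strand was found in the 250 bases before the start of C1qb (1 match), C1qc (1), Ctss (1), Cd68 (1) and Mrc1 (3), and in 23.3% of all 32851 promoter windows of that length. The Lyz2 window held none. TGANTCA, the AP-1 letters, occurred only in the Cd68 window among these 6 (2 matches), against 6.75% of all windows. TATAAA, also sought on either strand, was found in the Ctss window alone, against 12.4% of all. Its 1 match lies on the strand opposite to transcription, at bases 233 to 228 before the start and outside the stretch shown. The 3 motifs share no letters in these windows, and a match is a description of the letters only.

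Over the 17 arrays the members spanned between 3.04 (C1qc) and 4.57 (C1qb) log2 units. One uninjured sham mBCSP array, of the injury-coded set, was highest in 7 of 10 members (Csf1r, Cd68, Adgre1, Mrc1, C1qa, C1qb and C1qc). The 2 sham callus arrays with 3-letter codes had the lowest means of the 10 members, 7.84 and 7.89, and every uninjured array had a mean of at least 9.51. The callus arrays of OVX + E2 mice, at 10.10 and 10.25, were the highest of the callus arrays and above 4 of the 5 uninjured arrays in this mean. Adgre1 stood at the floor on 4 arrays, all callus, and Mrc1 on 3, all callus, while the other members were above it on every array.

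**Figure D1:**
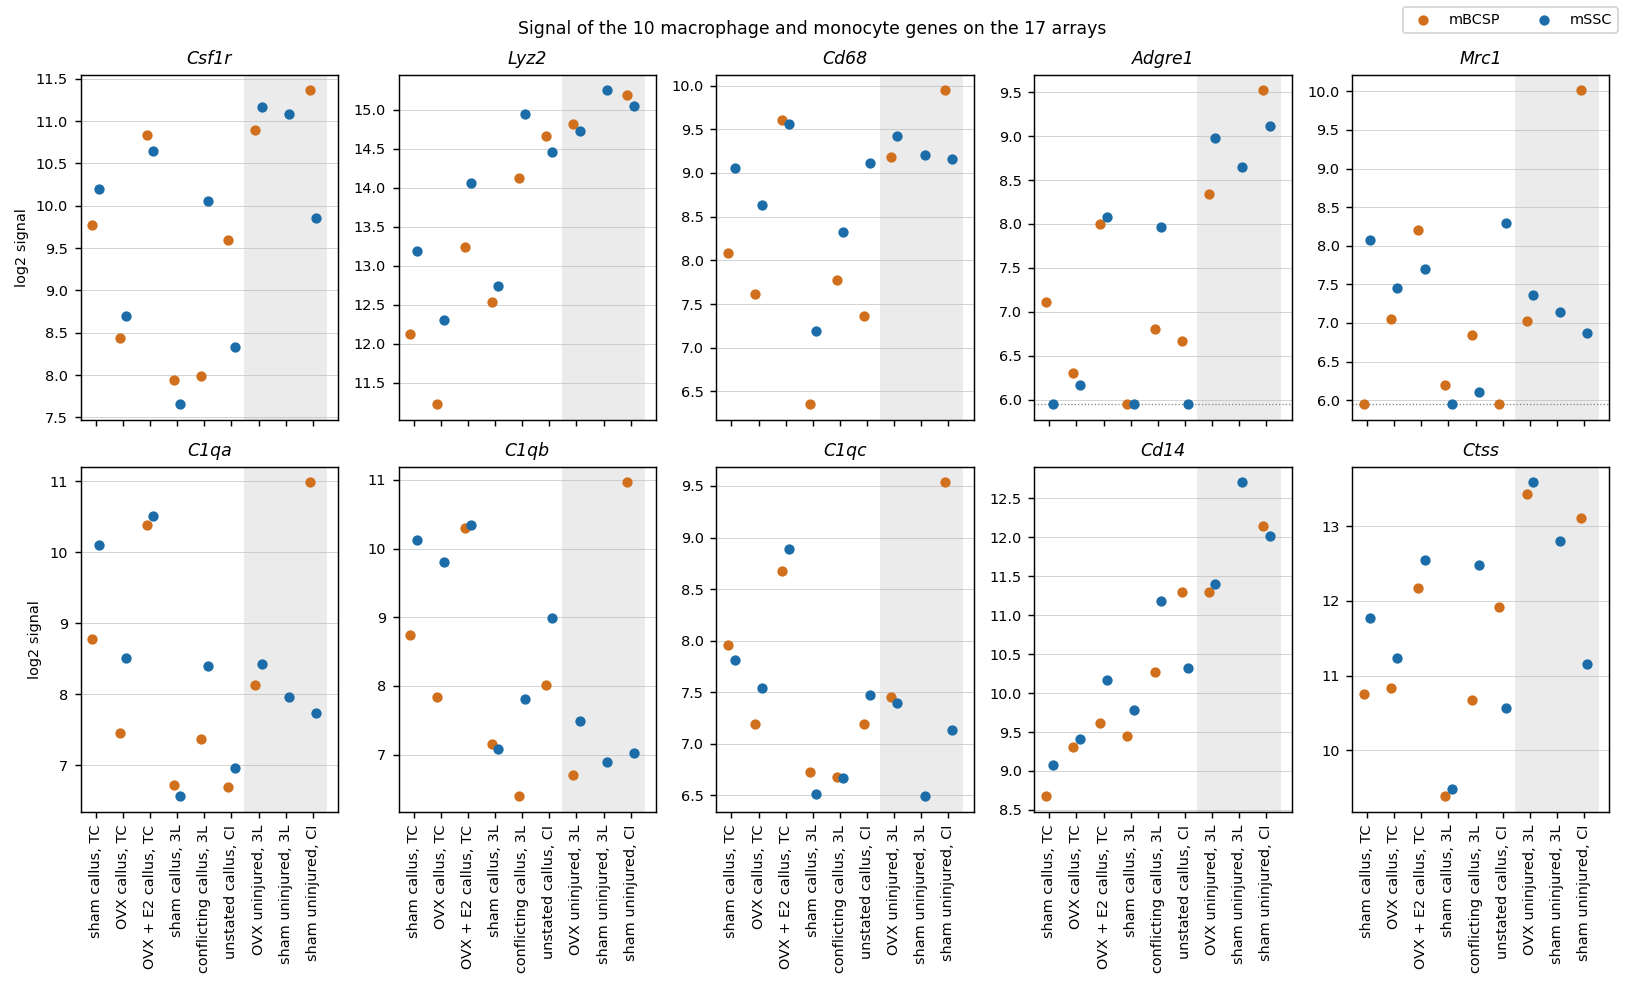
Log2 signal of each of the 10 genes (y axes differ) on every array, in columns of group and title form (TC, treatment-coded; 3L, 3-letter; CI, injury-coded), with uninjured bone shaded, and 1 point an array coloured by population. The dotted line is the floor. Adgre1 and Cd14 lie lower on all 12 callus arrays than on all 5 uninjured arrays, while the C1q genes are highest in callus on the OVX + E2 arrays and in uninjured bone on 1 array.

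Macrophage genes were lower in callus than in uninjured bone. The question of what injury does to the sorted cells was put to the 11 arrays of the sets that hold both sides (6 callus, 5 uninjured), with terms for injury, population and title form. All 10 members had negative log2 fold changes, with a median of -1.52 against 0.02 over all genes tested. Adgre1, Csf1r, Ctss, Cd68 and Cd14 fell at an adjusted p under 0.05 (limma, Benjamini-Hochberg), which is 5 of 10, where 32.3% of all genes were called and 14.8% were called lower. None rose. After normalization Cd68, Adgre1 and Cd14 did not overlap between callus and uninjured arrays, as was so for 7.96% of genes in this direction. Over all 17 arrays, Adgre1 and Cd14 still did not overlap, as was so for 7.03% of genes. In the deposited values 2 of these overlapped. Cd68 read 9.16 on the unstated mSSC callus array and 9.08 on the OVX uninjured mBCSP array. Cd14 read 11.21 on the conflicting mSSC callus array and 11.14 on the OVX uninjured mBCSP array.

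Csf1r, the receptor of CSF1, ranged from 9.85 to 11.36 on uninjured arrays (median 11.08) and from 7.66 to 10.06 on the 6 callus arrays (median 8.16). The ranges overlapped, through the conflicting mSSC array at 10.06 and the injury-coded uninjured mSSC array at 9.85. Its log2 fold change was -2.28 (SE 0.49, 95% interval -3.35 to -1.20, limma adjusted p = 0.00505), or 4.84-fold lower in callus. With every probe set tested on its own, another Csf1r probe set gave -1.71 (adjusted p = 0.00926) and correlated with the one used at 0.97, and the remaining one gave -0.76 (adjusted p = 0.0863) and correlated at 0.79.

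Of the surface proteins, Adgre1 (F4/80) read 9.11 and 9.52 on the injury-coded uninjured arrays and 8.34, 8.65 and 8.97 on those with 3-letter codes. On the 6 callus arrays it read 5.95, 5.95, 5.95, 6.67, 6.80 and 7.97, so no callus array reached the lowest uninjured one. The log2 fold change was -2.35 (SE 0.40, adjusted p = 0.00144), and as 3 callus arrays were at the floor it may understate the change. Cd14, the lipopolysaccharide co-receptor, ranged from 11.30 to 12.70 (median 12.02) in uninjured bone and from 9.45 to 11.30 (median 10.30) in callus, with a log2 fold change of -1.48 (SE 0.37, adjusted p = 0.0105). The unstated mBCSP callus array and the OVX uninjured mBCSP array both read 11.30 after rounding. Mrc1, the mannose receptor, spanned 6.87 to 10.01 in uninjured bone and 5.95 to 8.29 in callus, had -1.09 (SE 0.54) and did not pass the test (adjusted p = 0.150). The injury-coded uninjured mBCSP array at 10.01 stood far above the other 4 uninjured arrays, which lay between 6.87 and 7.36.

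Among lysosomal proteins, Ctss (cathepsin S) ranged from 11.15 to 13.58 in uninjured bone and from 9.39 to 12.48 in callus, with a log2 fold change of -2.10 (SE 0.64, adjusted p = 0.0266). This call was lost without any one of 6 arrays. The adjusted p was 0.0625 without the injury-coded uninjured mBCSP array, 0.0788 and 0.0750 without the OVX uninjured mBCSP and mSSC arrays, 0.0551 without the 3-letter sham uninjured mSSC array, 0.0607 without the unstated mSSC callus array and 0.0656 without the 3-letter sham callus mSSC array. Cd68, a membrane protein of lysosomes, ranged from 9.16 to 9.95 and from 6.36 to 9.12, and had -1.61 (SE 0.39, limma adjusted p = 0.00894). Its highest callus array was just under the lowest uninjured one after normalization, though not in the deposited values. Lyz2 (lysozyme) was high in uninjured bone, from 14.72 to 15.25, and ranged from 12.54 to 14.94 in callus. It had -1.03 (SE 0.40), which did not pass over all genes (adjusted p = 0.0696).

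The C1q genes, like Mrc1, were highest in uninjured bone on a single array. C1qa read 10.99 on the injury-coded uninjured mBCSP array, and 7.74, 7.97, 8.14 and 8.43 on the other uninjured arrays. C1qb read 10.96 on that array and between 6.70 and 7.49 on the others, and C1qc 9.53 against 6.49 to 7.46. Thus 1 of 5 uninjured arrays carried C1q signal above that of the rest by more than 2 log2 units. In callus against uninjured bone C1qa had -1.56 (SE 0.56, adjusted p = 0.0548), C1qc -0.73 (SE 0.34, adjusted p = 0.128) and C1qb -0.15 (SE 0.59, adjusted p = 0.879), and none was called. C1qb became 0.62 without that array and 0.18 within the 3-letter arrays alone, and C1qa became -0.84 and C1qc -0.33 without it. C1qa passed with a filter at the 60th percentile (adjusted p = 0.0484) and without the conflicting mSSC array (0.0127), as did Lyz2 without that array (0.0159). Without the injury-coded uninjured mSSC array C1qa (adjusted p = 0.0378), C1qc (0.0472) and Mrc1 (0.0464) passed. Of all genes, 4370 of 14504 were called without this array and 4493 of 14504 without the conflicting mSSC array. With the 60th percentile filter 4602 of 11712 were.

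Within the 7 arrays with 3-letter codes 6 members and 34.5% of all genes were called in callus against uninjured bone, with Csf1r at -2.53, Ctss at -2.69, Adgre1 at -1.90, Cd68 at -1.78, Cd14 at -1.52 and Mrc1 at -0.94. Within the 4 injury-coded arrays Adgre1 alone of the members was (-3.01), where 7.96% of genes were, and Csf1r stood at -1.64, Cd14 at -1.27, Cd68 at -1.32 and Ctss at -0.89. The difference between the sets was tested as an interaction and no member passed (smallest adjusted p = 0.514, Ctss), while 80 of 14504 genes did. Without the arrays labelled or titled OVX, Csf1r, Adgre1, Cd14 and 15.8% of genes were called and Cd68 (-1.62, adjusted p = 0.0814) and Ctss (-2.02, adjusted p = 0.0980) were not. Sham callus was also set against sham uninjured bone in the fit of all 17 arrays. With the title form as a term this rests on the sham callus arrays and a single sham uninjured mSSC array with 3-letter codes. Lyz2 had -2.39, Csf1r -3.29 and Ctss -3.33 there.

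**Figure D2:**
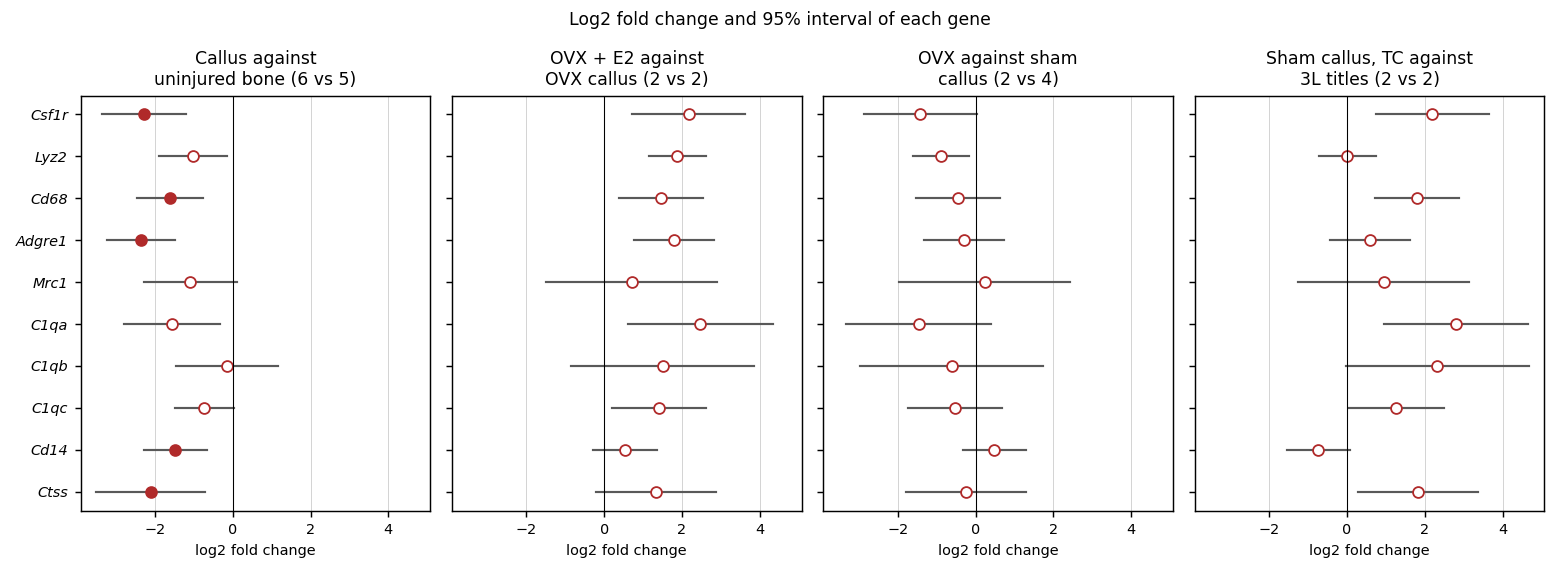
Log2 fold change (x axis) and 95% interval (bar) of each gene in 4 comparisons, with the numbers of arrays above each panel. Filled points passed an adjusted p of 0.05. Callus values lie below 0 for all 10 genes and 5 are filled, while OVX + E2 against OVX values lie above 0 for all 10 and none is filled.

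Of 38 other macrophage and monocyte genes, 36 were measured and 35 tested. In callus against uninjured bone 28 were lower and 7 higher, with 19 called lower, 4 called higher and a median of -1.16. Genes of blood monocytes and of myeloid cells at large were among those that fell: Ccr2, the receptor by which monocytes leave marrow (-3.62), Mpeg1, a pore protein of phagocytes (-3.43), Clec7a, the beta-glucan receptor (-3.09), Cd33, an inhibitory lectin of myeloid cells (-3.04) and Itgam, a chain of the integrin Mac-1 (-3.03). Spi1, which encodes PU.1, fell by 1.69. Genes that rose were Lgmn, a lysosomal protease (2.37), Mertk, a receptor for dying cells (1.83), Folr2, a folate receptor of resident macrophages (1.76), and Maf, a transcription factor (1.75). Like several of the genes that fell, these 4 are not restricted to macrophages. Of genes known from resident macrophages, Lyve1 (-1.16, limma adjusted p = 0.0417) and Timd4 (-0.93, limma adjusted p = 0.0351) fell. Timd4 had a median of 6.26 over all arrays, near the floor, and was highest (8.98) on the injury-coded uninjured mBCSP array. Siglec1 (-0.07), Marco (-0.18) and Cd163 (-0.98) did not pass the test, and Vsig4, at the floor on 14 arrays, was not tested.

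Partners of the members and genes of related pathways moved in both directions. Of 7 further complement genes, C1s1 (1.59) and C1ra (1.2), the proteases that C1q activates, and their inhibitor Serping1 (1.80) rose in callus. C5ar1, the receptor of C5a, fell by 2.47. Of 11 genes of the CD14 and TLR4 pathway, Tlr2 (-2.29), Il1b (-2.27), Cxcl2 (-2.08), Tlr4 (-1.38), Nfkbia (-1.19) and Tnf (-0.90) fell with Cd14, and Il6 rose (1.27). Among 7 tested CSF1R ligands and monocyte chemoattractants, Il34, the other ligand of CSF1R, rose (0.71), and Csf1 itself had 0.01. Il34 was near the floor: it read at most 7.35 on any array and stood at the floor on 2.

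Markers of other cells differed by cell type in callus against uninjured bone, and only some fell as the members did. All 8 pan-leukocyte genes fell in callus (median -2.29), among them Ptprc, which encodes CD45 (-2.94). The mean of these 8 genes was 13.22 to 13.88 on the 5 uninjured arrays and 9.92 to 12.75 on the 6 callus arrays. Of 10 neutrophil genes, 5 were called lower (median -1.25), and of 11 skeletal genes 10 were called higher (median 2.55). The skeletal mean was 8.49 to 10.92 in uninjured bone and 11.94 to 12.64 in callus. Osteoclast genes had a median of -0.07, with 1 called higher and 1 called lower of 8 tested. Of 8 endothelial genes, 6 were higher (median 0.25) and none was called. The part of these cells in the fall of the members was not tested.

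**Figure D3:**
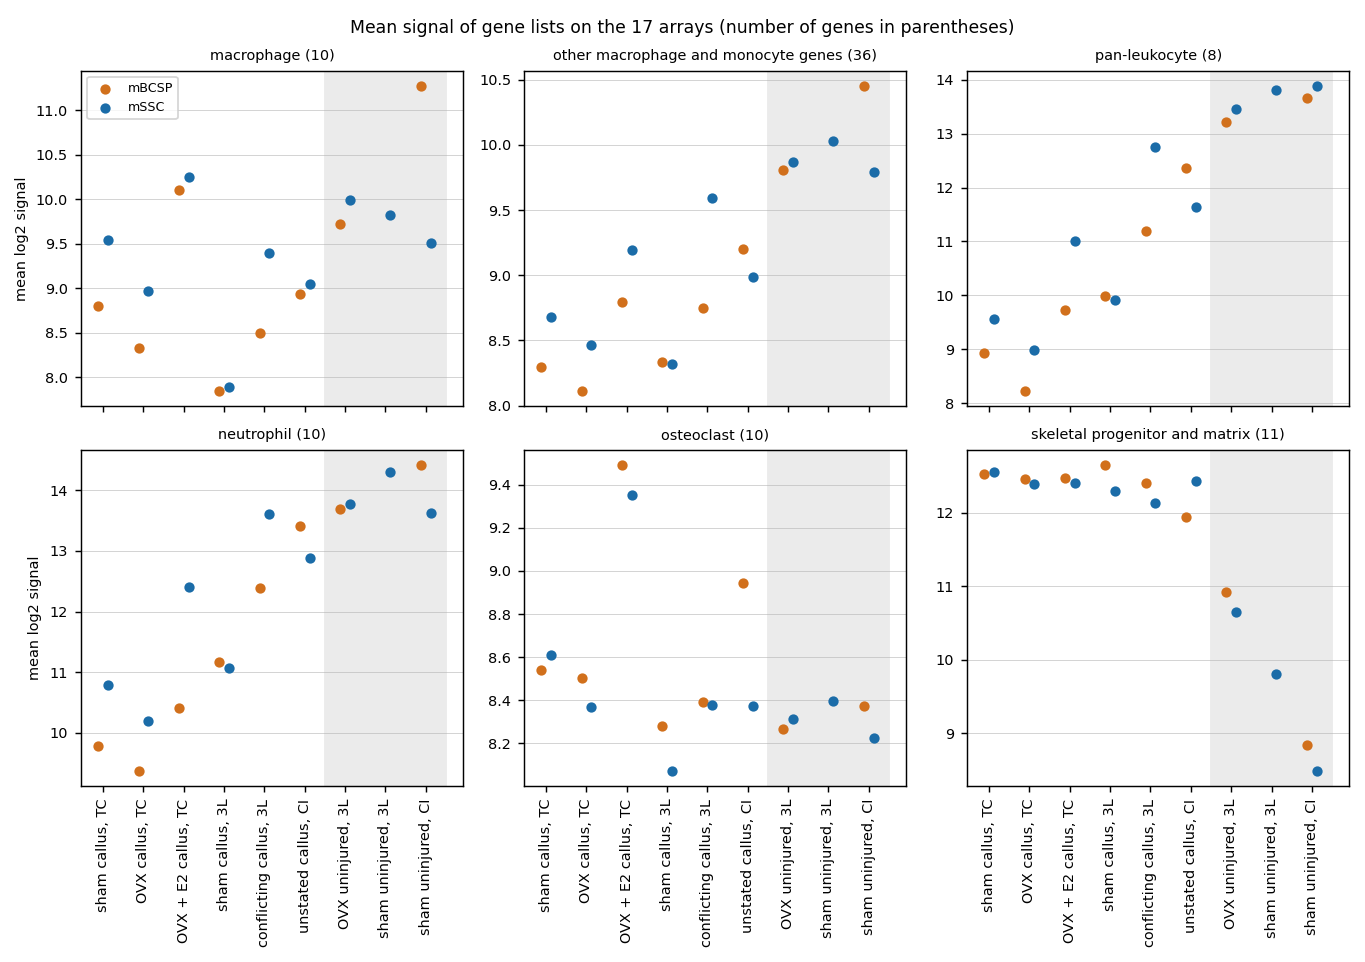
Mean log2 signal (y axis) of 6 gene lists on each array, in columns of group and title form as in the plot of single genes, with uninjured bone shaded. The pan-leukocyte mean is at least 13.22 on uninjured arrays and at most 12.75 on callus arrays, and the skeletal mean is at least 11.94 in callus and at most 10.92 in uninjured bone. The 2 OVX + E2 arrays have the highest osteoclast means.

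The 10 members stood higher on OVX + E2 than on OVX callus arrays, without passing the test. This comparison addresses replacement of estradiol after ovariectomy and rests on 2 arrays against 2, all treatment-coded. All 10 members had positive log2 fold changes, with a median of 1.48 against 0.02 over all genes, and for all 10 both OVX + E2 arrays were above both OVX arrays, as was so for 18.0% of genes tested. No member was called, and 3 genes of 14504 were (0.0207%). At an unadjusted p under 0.05 there were 6 members, where 2.29% of all genes were under it. The methods' t-test, without covariates, put 5 members at or below an unadjusted threshold of 0.05 (Csf1r, Adgre1, C1qa, C1qc and Ctss) and none after Benjamini-Hochberg adjustment.

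C1qa read 7.45 and 8.51 on the OVX arrays and 10.39 and 10.52 on the OVX + E2 arrays, a log2 fold change of 2.47 (SE 0.84, 95% interval 0.61 to 4.33). Csf1r read 8.44 and 8.70 on OVX against 10.65 and 10.84 on OVX + E2 arrays, or 2.17 (SE 0.66, 95% interval 0.72 to 3.63). The 2 arrays of a group lay close together for Csf1r, while for C1qa the OVX arrays were spread more widely (SD 0.74). Lyz2, at 11.23 and 12.30 against 13.24 and 14.06, had 1.88 (SE 0.33, limma adjusted p = 0.210). It passed only in a fit of the 6 treatment-coded arrays alone (limma adjusted p = 0.0466), 1 of 15 alternatives that called from 0 to 8 genes each. Adgre1 read 6.17 and 6.30 against 8.0 and 8.07, or 1.80 (SE 0.47, adjusted p = 0.781). Both OVX arrays were near the floor of 5.95 for this gene.

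C1qb (1.5, SE 1.07), Cd68 (1.46, SE 0.49), C1qc (1.42, SE 0.55) and Ctss (1.33, SE 0.70) came next, and Mrc1 (0.70, SE 0.998) and Cd14 (0.53, SE 0.37) were smallest. C1qb on the OVX mSSC array (9.80) was close to both OVX + E2 arrays (10.30 and 10.34), and the OVX mBCSP array (7.84) was the lower. The same OVX + E2 arrays were above both treatment-coded sham callus arrays in 9 of 10 members, Mrc1 being the exception, as was so for 16.7% of genes. Sham and OVX + E2 were not fitted against each other.

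Pan-leukocyte, neutrophil and osteoclast genes stood higher on the same arrays, while other leukocyte lists had smaller medians. These were 0.11 for T and NK cell genes, 0.20 for dendritic cell and MHC class II genes and 0.31 for B cell genes. Of 8 pan-leukocyte genes 8 had positive log2 fold changes (median 1.92, Ptprc 2.27), as had 10 of 10 neutrophil genes (median 1.67) and 8 of 8 osteoclast genes (median 1.23), and none was called. Ptprc read 6.58 and 8.31 on OVX and 8.80 and 10.62 on OVX + E2 arrays, below every uninjured array. Atp6v0d2 (2.55) and Dcstamp (1.59), genes of osteoclast acid secretion and fusion, had adjusted p-values of 0.433 and 0.210. The other macrophage and monocyte genes had a median of 0.42, with 27 of 35 higher. Itgb2 (2.50) and Tyrobp (2.26), which serve adhesion and signalling in myeloid cells at large, led among them. Genes known from resident macrophages stood at 0.07 (Folr2), 0.07 (Timd4), -0.03 (Marco), -0.18 (Cd163), -0.27 (Lyve1) and -0.31 (Siglec1). Mertk stood at -0.40. Whether cells of these kinds account for the values of the members was not tested.

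Ovariectomy alone was set against sham surgery in callus (2 arrays against 4). With the title form as a term the difference rests on the 2 OVX and the 2 treatment-coded sham arrays, and the other sham arrays enter the spread. Of the members 8 had negative and 2 positive log2 fold changes (median -0.49, all genes -0.02), and none was called, as was so for 0% of all genes. Csf1r read 8.44 and 8.70 on OVX arrays and 9.78 and 10.20 on treatment-coded sham arrays, or -1.42 (SE 0.66, 95% interval -2.87 to 0.03). C1qa, at 7.45 and 8.51 against 8.78 and 10.11, had -1.47 (SE 0.84), and Lyz2 -0.89 (SE 0.33), the only member with an unadjusted p under 0.05 in limma, where 2.02% of all genes had one. Csf1r, C1qa and C1qc were lower on both OVX arrays than on both sham arrays of that set, which held for 18.6% of genes. The values of Cd68 (-0.45), C1qb (-0.61), C1qc (-0.52) and Ctss (-0.24) turned positive without the title form term, and those of Lyz2, Cd68, Adgre1 and Ctss did with the conflicting arrays counted as OVX. C1qa became -0.06 and Csf1r -0.33 without the form term, and -0.11 and -0.10 with the conflicting arrays counted as OVX. Both comparisons use the same OVX arrays.

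Sham callus arrays of different title forms were also compared. Treatment-coded sham callus arrays (2) were set against those with 3-letter codes (2), which the labels describe in the same terms. Of the members 9 were higher and Cd14 lower on the treatment-coded arrays, with a median of 1.53. None was called, where 2.91% of all genes were, and 5 had an unadjusted p under 0.05 in limma, as had 15.3% of all genes. C1qa read 8.78 and 10.11 against 6.72 and 6.56 (2.81, SE 0.84, adjusted p = 0.116), and C1qb 8.74 and 10.12 against 7.15 and 7.09 (2.31, SE 1.07). Csf1r had 2.19 (SE 0.66), Ctss 1.83 (SE 0.70) and Cd68 1.79 (SE 0.49, adjusted p = 0.0847), while Lyz2 had 0.01 (SE 0.33) and Cd14 -0.74 (SE 0.37). For 6 members, Csf1r, Cd68, Ctss and the C1q genes, both treatment-coded arrays were above both others, as was so for 27.3% of genes.

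Without either injury-coded uninjured array, C1qa, C1qb, C1qc and Cd68 passed, with adjusted p-values from 0.00541 to 0.0356, where 4.31% and 4.3% of genes were called. Csf1r passed without either conflicting array (0.0480 and 0.0484), where 2.21% and 2.23% were, and Cd68 without either unstated array (0.0265 and 0.0262), where 7.45% and 7.47% were. Leukocyte genes did not follow: 7 of 8 pan-leukocyte genes had negative values (Ptprc -2.24, adjusted p = 0.125) and 10 of 10 neutrophil genes did, with Mmp8, a neutrophil collagenase, called (-2.27). C1s1 (2.24), Cfb (2.15) and Serping1 (1.72) of the further complement genes were called higher on the treatment-coded arrays, and so was Cxcl12 (2.67), a chemokine of marrow stroma. What the title forms stand for was not tested.

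No difference between the sorted populations passed the test. In mSSC against mBCSP arrays 7 members were higher and 3 lower (median 0.08), and none was called, as was so for 0% of genes. At an unadjusted p under 0.05 stood Cd68 (0.57, SE 0.25, 95% interval 0.02 to 1.11) and Lyz2 (0.44, SE 0.17, 95% interval 0.07 to 0.81), with adjusted p-values of 0.502 and 0.443, and 9.66% of all genes. Over 8 pairs of arrays of the same group and form, mSSC was higher in 6 pairs for Cd68, C1qa, C1qb, Cd14 and Ctss and in 3 for Adgre1 and C1qc. Pairs ran both ways within a gene: the mSSC value minus the mBCSP value of C1qb was -3.94 in the injury-coded sham uninjured pair and 1.96 in the OVX callus pair. No interaction of injury and population was called for a member (adjusted p = 0.9997 for each) or for any of 14504 genes.

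In uninjured bone OVX was compared with sham, which with the title form as a term rests on 2 OVX arrays and a single sham mSSC array. Of the members 6 had positive and 4 negative log2 fold changes (median 0.22), none was called, and 0.145% of all genes were. Cd14 read 11.30 and 11.41 on OVX arrays and 12.70 on the sham mSSC array of the same set, or -1.27 (SE 0.46, adjusted p = 0.475), and was the 1 member with an unadjusted p under 0.05, where 7.76% of all genes had one. Csf1r (-0.07, 95% interval -1.88 to 1.75) and Adgre1 (-0.03, 95% interval -1.31 to 1.26) had intervals that leave room for changes of more than 2-fold either way.

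Over the 17 arrays the members fell into loose sets by correlation, given here as a description, since arrays share sets, groups and populations. Csf1r and Ctss followed each other most closely (r = 0.92), then Lyz2 and Cd14 (0.89), C1qb and C1qc (0.86) and C1qa and C1qc (0.85). Between the sets C1qb and Cd14 had -0.27, Lyz2 and C1qb -0.14 and C1qa and Cd14 -0.01. Within title forms the values differed, with Lyz2 and C1qb at 0.91 over the 6 treatment-coded arrays and 0.08 over the 7 with 3-letter codes, and C1qa and Cd14 at 0.47 and 0.79. C1qb and C1qc had 0.03 within the 7 arrays with 3-letter codes, where C1qb spanned only 6.39 to 7.80.

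**Figure D4:**
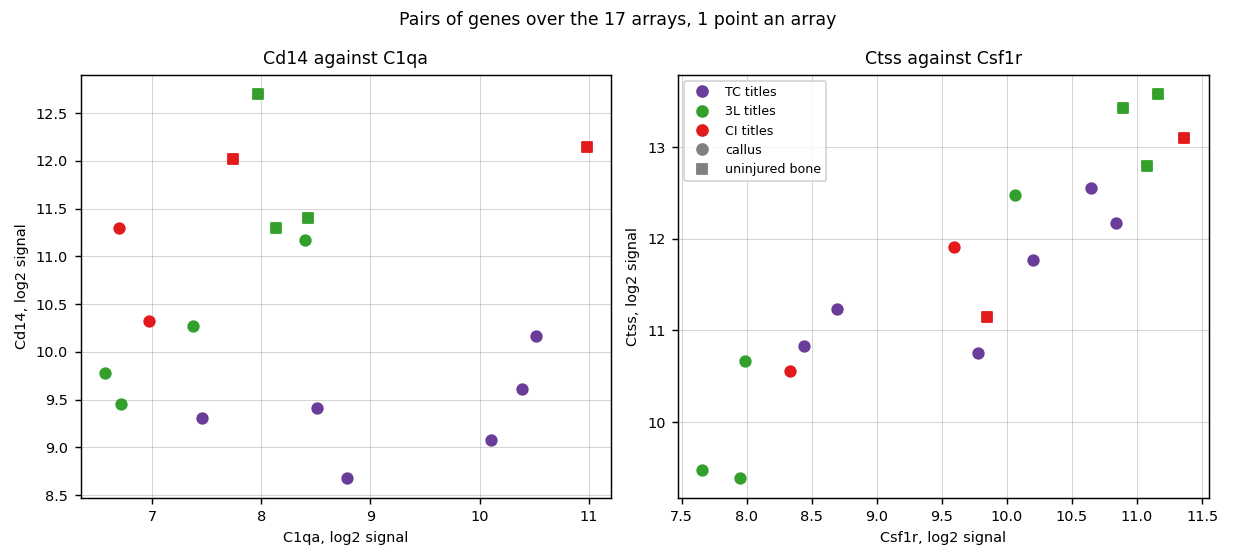
Log2 signal of Cd14 against C1qa (left) and of Ctss against Csf1r (right), 1 point an array, coloured by title form (TC, treatment-coded; 3L, 3-letter; CI, injury-coded) and shaped by injury. Ctss follows Csf1r over all sets (r = 0.92), while Cd14 and C1qa have r = -0.01 over all arrays, 0.47 within the treatment-coded and 0.79 within the 3-letter arrays, with Cd14 at most 10.17 on the treatment-coded arrays.

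The genes most like the mean of the members (each scaled to unit variance over the 17 arrays) were Aif1, a calcium-binding protein of macrophages (r = 0.88), Dtymk (0.87), Otulinl (0.84), Zfp763 (0.82), Rfc3 (0.82), Gins1 (0.82), Nasp (0.81), Cebpa (0.81), Dnase1l1 (0.80) and Cyth4 (0.80). Dtymk, Rfc3, Gins1 and Nasp are known for parts in DNA synthesis or in chromatin assembly, and Cebpa for a part in myeloid development. Over the treatment-coded arrays alone, the genes most like the mean ranged from 0.32 (Otulinl) to 0.90 (Aif1). Dtymk had 0.65 there, Rfc3 0.64, Gins1 0.51 and Nasp 0.38. Over the 3-letter arrays the range was 0.84 (Cebpa) to 0.97 (Dtymk). The most unlike were Ccdc157 (-0.84), Ddit4 (-0.84) and Npr3 (-0.81). The median correlation of all genes with this mean was -0.01.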

How the data were processed

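Log2 signals of 45101 probe sets on 17 arrays were used as deposited by the authors. The labels name MAS5, and the methods name GCOS, dChip and Gene Expression Commons. Which of these made the values is not given in the sources used here. RNA went through 2 rounds of amplification by the methods.

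The platform's 64 controls were dropped, and no gene was named for 932 probe sets with several symbols or for 9160 without one. Signals were quantile-normalized, floored at the 20th percentile (5.95) and kept where at least 2 arrays reached the 40th (7.20). Levels were tested with limma 3.58.1 in R 4.3.3 (lmFit, eBayes with trend), with terms for group, population and title form and 7 residual degrees of freedom, and with Benjamini-Hochberg adjustment over 14504 genes at 0.05. Callus against uninjured bone was fitted on 11 arrays, also with 7 residual degrees of freedom. The scripts were tested on simulated data. The number of arrays limits the precision. Every member is named, and other genes by their list and call. The members and lists were chosen with earlier results of these data known.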

Additional observations from a re-analysis of the deposited data

Results flagged for a closer look

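In sham callus, the only group of 4 arrays or more, Adgre1 and Mrc1 of the 10 members had an array whose distance to its nearest neighbour took up most of the range. Both are members with values at the floor of 5.95, which sets low arrays equal and widens such a gap, so the usual chance rate of 1 in 20 does not apply to them. Adgre1 read 7.11 on the treatment-coded mBCSP array and stood at the floor on the other 3, so this gap was the whole range (1), against 0.841 of the range in the deposited values. Mrc1 read 8.08 on the treatment-coded mSSC array and stood at the floor on 2, with a gap of 0.8824 of the range, against 0.797 in the deposited values, which is below the limit for 4 arrays.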

How the results depend on the processing

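A fit with each pair of mSSC and mBCSP arrays of the same group and form as a block has the same terms as the fit used and gave the same values (median 0.08, 0 members called). No paired analysis was possible because the labels carry no replicate numbers, where treatments or injury were compared. Of 794 member values under alternatives that did not leave out a single array, 735 kept direction and side of the threshold, 5 passed only there, 7 no longer passed and 47 changed sign, and the cause was not tested. No OVX + E2 against OVX value changed sign.

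In callus against uninjured bone, genes called numbered 9759 with every probe set tested, 1154 in injury-coded arrays alone (1 member) and 2295 without OVX arrays (3 members). The members' median was -2.27 for sham callus against sham uninjured bone, which rests on a single uninjured array. C1qb became 0.18 in 3-letter arrays alone, 0.76 over 17 arrays with no form term and 0.38 in that sham comparison (C1qc 0.00075). It became 0.59 without both injury-coded mBCSP arrays, an alternative chosen after seeing the data. With 1 array left out, genes called ranged from 3604 to 5954, members from 4 to 8, the median from -1.72 to -1.24 and C1qb from -0.64 to 0.62.

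In OVX against sham callus, 1 gene was called with no filter and 2 with the conflicting arrays as OVX, where the median was 0.37, Lyz2 0.50, Cd68 0.41, Adgre1 0.57 and Ctss 0.95. With no form term, and in the methods' t-test, Cd68 was 0.45, C1qb 0.54, C1qc 0.11 and Ctss 0.68, and with form as a random block Cd68 was 0.20, C1qb 0.17 and Ctss 0.47. With 1 array left out, 0 genes and 0 members were called, the median ranged from -0.86 to -0.19, Adgre1 from -0.92 to 0.33, C1qb from -1.55 to 0.33, Ctss from -0.78 to 0.31 and Mrc1 from -0.94 to 1.41. In OVX + E2 against OVX, genes called numbered 0 with no form term and by the methods' t-test, 1 with the random block and 1 with the conflicting arrays as sham. Without the unstated arrays 8 were called, the most of any such alternative. On treatment-coded arrays alone 1 member was called. With 1 array left out, genes ranged from 0 to 8, members stayed at 0, the median ranged from 1.17 to 1.76, C1qb from 0.56 (without the OVX mBCSP array) to 2.44 (without the OVX mSSC array) and Mrc1 from 0.37 (without the OVX + E2 mBCSP array) to 1.03 (without the OVX + E2 mSSC array).

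In OVX against sham uninjured bone, genes called numbered 7 as deposited, 6 with median scaling, 46 with no filter, 485 with no form term, 244 with the random block and 74 without the unstated arrays. With no form term Csf1r was 0.26, Cd68 -0.052, Mrc1 -0.82, C1qa -0.62, C1qb -1.18 and C1qc -0.36. With the random block Csf1r was 0.37, Mrc1 -0.59, C1qa -0.23, C1qb -0.73 and C1qc -0.056, and without the unstated arrays Csf1r was 0.022, Adgre1 0.021 and Mrc1 -0.077. With 1 array left out (16 of 17 possible), genes ranged from 6 to 76, members stayed at 0, the median ranged from 0.07 to 0.39, Adgre1 from -0.47 to 0.32, Csf1r from -0.26 to 0.084, Lyz2 from -0.53 to 0.083 and Mrc1 from -0.087 to 0.32.

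In mSSC against mBCSP, Csf1r was 0.014 as deposited, 0.043 with median scaling, 0.011 with no form term (Mrc1 -0.034, C1qa -0.028), 0.024 with the random block (Mrc1 -0.0069), 0.15 without the unstated arrays (Adgre1 0.024, Mrc1 -0.25) and 0.17 in callus alone (C1qc 0.078, median 0.48). With 1 array left out, 0 genes and 0 members were called, the median ranged from 0.0058 to 0.44, Csf1r from -0.33 to 0.18, Adgre1 from -0.24 to 0.088, Mrc1 from -0.25 to 0.53, C1qa from -0.090 to 0.56, C1qc from -0.33 to 0.057 and Ctss from -0.18 to 0.36. Between sham callus title forms, genes called numbered 278 with the widest-range probe set and 636 with every probe set, and Lyz2 was -0.00043 with median scaling. With 1 array left out, genes ranged from 36 to 1084, members from 0 to 4, the median from 1.25 to 2.07, Adgre1 from -0.044 to 1.2, Lyz2 from -0.34 to 0.37 and Mrc1 from -0.24 to 2.12.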
